A study of Mus musculus with 12 samples.

Results

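Dorsal non-astrocytes were compared with ventral non-astrocytes, the cells of the early postnatal mouse spinal cord left after astrocytes have been taken out. The comparison rests on 6 arrays of the 12 in the series: the 3 labelled GFP negative and dorsal and the 3 labelled GFP negative and ventral, paired by replicate number. All cords came from mice at postnatal day 7 that carry an Aldh1l1-GFP transgene, in which astrocyte-specific Aldh1l1 sequences drive green fluorescent protein, kept on a Swiss-Webster background. Cords were dissociated with papain and flow sorted, so that the groups were dorsal non-astrocytes and ventral non-astrocytes (GFP negative), and, from the same tissue, dorsal astrocytes and ventral astrocytes (GFP positive), with 3 biological replicates each. Non-astrocytes are defined by lack of GFP alone and are a mixture of cell classes, and the labels do not say whether a replicate pools several cords. The title of the series concerns positional cues of astrocytes, and the non-astrocyte arrays show how far the same regional split marks the remaining cells.

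The dorsal cord holds the circuits that receive touch, pain and itch from the body, with many small excitatory and inhibitory interneurons that use peptides such as substance P. The ventral cord holds motor neurons, premotor interneurons and thick myelinated tracts. Around both lie oligodendrocytes, which wrap axons in myelin and arise from dividing precursors, microglia, which are the resident macrophages and prune and clear debris, blood vessel cells, and ependymal cells, which line the central canal and beat motile cilia. The first postnatal weeks are a period of active myelination in rodents.

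Of 28467 probe sets tested, 5116 had a gene name, which gave 4575 genes. Most of the names come from the authors' list of probe sets that differ between astrocytes and non-astrocytes, so genes with similar signal in both sorts are mostly unnamed here. Values are log2 signals after RMA (background correction, normalization and summary per probe set), so a difference of 1 is a doubling. Levels are compared between arrays for 1 probe set, never between genes. With 3 arrays a group, that number bounds the precision. Array medians lay between 6.60 and 6.62 for the 6 non-astrocyte arrays and between 6.57 and 6.62 for the 6 astrocyte arrays. The source field of the non-astrocyte arrays names the positive sort, against their titles and cell type field. Aldh1l1, the folate enzyme gene whose sequences drive the transgene, lay at 5.71 to 6.06 on the 6 non-astrocyte arrays and at 9.10 to 10.04 on the 6 astrocyte arrays. Markers of the remaining cells ran the other way. Mbp, the myelin basic protein gene, lay at 10.47 to 10.77 on non-astrocyte arrays and at 8.42 to 9.30 on astrocyte arrays, and Csf1r, the receptor that microglia need to survive, at 8.20 to 9.02 and at 6.23 to 6.74. One array stood apart in vessel genes: the mean over 15 endothelial markers was 6.65 in dorsal replicate 1 and 7.38 to 7.91 on the other 5 non-astrocyte arrays.

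Regional differences were small. With the replicate number as a block, limma called 0 of 28467 probe sets (percent called 0) at an adjusted p under 0.05, where the lowest adjusted p was 0.073. At an adjusted p under 0.10, 16 probe sets passed (0.0562%). At an unadjusted p under 0.05 there were 1716 probe sets (6.03%), 824 with the higher signal in dorsal cells (2.89%) and 892 with the higher signal in ventral cells (3.13%). Without the block, limma called 14 probe sets (0.0492%), 5 higher in dorsal cells (0.0176%) and 9 higher in ventral cells (0.0316%), with adjusted p from 0.024 to 0.046. These were the 14 probe sets of lowest p with the block as well (adjusted p 0.073 to 0.08 there), and in none of them did the groups overlap. With the block and array weights, which gave the non-astrocyte arrays weights of 1.22 to 1.65 and the astrocyte arrays 0.621 to 0.903, limma called 74 probe sets (0.26%), 29 higher in dorsal cells (0.102%) and 45 higher in ventral cells (0.158%), among them these 14. With the block and no weights, 12 probe sets were called when dorsal replicate 3 was left out. The count was 2 without dorsal replicate 2, 1 without ventral replicate 2 and 0 without any other single non-astrocyte array. Astrocyte arrays were not left out singly. Without the block, 31 were called when dorsal replicate 3 was left out, 4 without dorsal replicate 1, 2 without dorsal replicate 2 and 0 without ventral replicate 1, 2 or 3; 0 were called there when the 6613 control-type probe sets left out of the test were put back. A difference of at least 2-fold was found at 45 probe sets (0.158%) between dorsal and ventral non-astrocytes, 19 higher in dorsal cells (0.0667%) and 26 higher in ventral cells (0.0913%), and at 96 (0.337%) between dorsal and ventral astrocytes. Over all probe sets tested the median difference, dorsal minus ventral, was -0.0031 with a SD of 0.16. In 1630 probe sets (5.73%) all 3 dorsal values lay above all 3 ventral values, and in 2004 (7.04%) all 3 ventral values lay above all 3 dorsal values; over the named genes these shares were 8.68% and 10.3%.

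Of the 14 probe sets that passed without the block, 6 had a name. Slc14a1, a urea transporter gene, had log2 signals of 6.04, 5.85 and 5.99 in dorsal replicates 1 to 3 and of 6.73, 6.82 and 6.68 in ventral replicates 1 to 3. Every dorsal value was below every ventral value, a difference of -0.78 ± 0.09 (SE; limma adjusted p 0.073 with the block and 0.024 without), or 1.72-fold higher in ventral cells. Slc14a1 is far brighter in astrocytes, with 10.36, 10.41 and 10.55 in dorsal astrocytes and 10.32, 10.24 and 10.31 in ventral astrocytes. Dnah12, a heavy chain of the dynein arms that move cilia, had 5.48, 6.50 and 6.21 in dorsal cells and 7.66, 7.29 and 7.71 in ventral cells. Its difference of -1.49 ± 0.19 (limma adjusted p 0.073 with the block, 0.037 without) was 2.81-fold in favour of ventral cells. In astrocytes Dnah12 differed by -1.50 ± 0.19, almost the same amount (limma adjusted p 0.01). Among the 8 unnamed probe sets, 7 were higher in ventral cells, and one of these, 10480414, had the largest difference of the 14, with 5.74, 6.33 and 6.64 in dorsal cells and 7.80, 7.69 and 8.02 in ventral cells.

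On the dorsal side 4 named genes passed without the block and none with it in the unweighted fit over all probe sets; with array weights and the block each had an adjusted p of 0.014 in limma, and 0.04 when probe sets above the median signal alone were tested. Pde7b, a phosphodiesterase that degrades cyclic AMP, had 8.79, 8.59 and 8.66 in dorsal cells and 7.86, 7.78 and 8.03 in ventral cells, which is 1.73-fold (0.79 ± 0.12; limma adjusted p 0.08 with the block, 0.037 without). Kcnd2, a subunit of the A-type potassium channel, had 8.87, 8.91 and 8.90 in dorsal cells and 8.32, 8.36 and 8.03 in ventral cells, or 1.58-fold. All 3 dorsal replicates of Kcnd2 were nearly equal and lay clear of the ventral ones (0.66 ± 0.10; limma adjusted p 0.08 with the block, 0.046 without). Adgrl2, a latrophilin adhesion receptor found at synapses, had 6.42, 7.02 and 6.99 in dorsal cells and 5.64, 5.95 and 5.84 in ventral cells. This probe set differed by 1.00 ± 0.15 (limma adjusted p 0.08 with the block, 0.043 without), and the other 6 probe sets of Adgrl2 by 0.24 to 0.73, so they disagree on the size. Etv5, a transcription factor gene that responds to fibroblast growth factors, had 8.47, 8.64 and 8.46 in dorsal cells and 7.962, 8.004 and 7.863 in ventral cells (0.58 ± 0.09; limma adjusted p 0.08 with the block, 0.037 without). A second probe set of Etv5 differed by 0.39 ± 0.11 and did not pass (limma adjusted p 0.4 with the block, 0.49 without). All 4 genes were brighter in astrocytes than in non-astrocytes. Pde7b averaged 8.68 in dorsal and 7.89 in ventral non-astrocytes against 9.60 and 9.58 in dorsal and ventral astrocytes, Kcnd2 8.89 and 8.23 against 10.05 and 10.15, Adgrl2 6.81 and 5.81 against 9.17 and 8.996, and Etv5 8.53 and 7.94 against 10.12 and 9.81. Within astrocytes their regional differences were 0.02, -0.10, 0.17 and 0.31. The part of astrocyte RNA in the non-astrocyte differences was not tested.

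**Figure D1:**
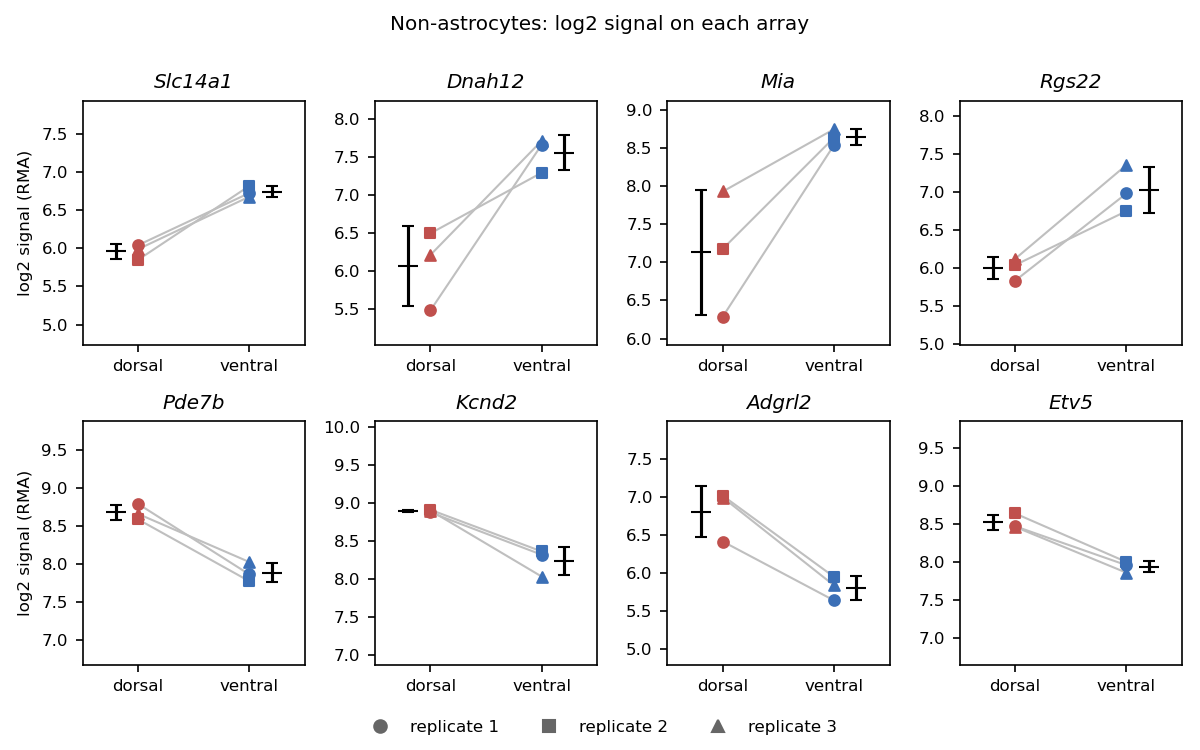
Log2 signal (RMA, vertical axes spanning the same range) of 8 genes on each dorsal array (red, left) and ventral array (blue, right) of non-astrocytes. Symbols mark replicates 1 to 3, grey lines join arrays of one replicate number, and black bars give the group mean ± SD (n = 3). The groups do not overlap for any of the 8 genes, and the widest spread is that of Mia in dorsal cells, at 6.29 to 7.93.

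The 14 other genes of lowest p, 6 on the dorsal side and 8 on the ventral side, passed neither with nor without the block in unweighted fits. All but Fam216b passed with array weights and the block. Dorsal values were the higher for Lgi1, a secreted synaptic protein (1.00 ± 0.17), Slc4a10, a sodium-driven bicarbonate transporter of neurons (0.68 ± 0.12), Rel, a subunit of the transcription factor NF-kappa B (0.67 ± 0.12), Lonrf3 (0.63 ± 0.10), Prkcd, a protein kinase C (0.61 ± 0.11), and Lgalsl, a galectin-like gene (0.49 ± 0.09). Their limma adjusted p ranged from 0.13 to 0.16 with the block. Lgi1 averaged 7.41 in dorsal and 6.40 in ventral non-astrocytes against 10.08 and 10.62 in dorsal and ventral astrocytes. In astrocytes it ran the other way (-0.54 ± 0.17, limma adjusted p 0.26). Lonrf3, Prkcd and Lgalsl were also brighter in astrocytes, and Slc4a10 and Rel in non-astrocytes. Ventral values were the higher for Mia, a secreted protein known from cartilage (-1.51 ± 0.26), Fam216b (-1.05 ± 0.20), Rgs22, a regulator of G protein signalling (-1.03 ± 0.16), Bbox1, the last enzyme of carnitine synthesis (-0.75 ± 0.13), Anxa5, a phospholipid-binding annexin (-0.72 ± 0.13), Plekhg1 (-0.69 ± 0.12), Tmem254a (-0.56 ± 0.09), and Sp7, a transcription factor first known from bone (-0.50 ± 0.09). Their limma adjusted p ranged from 0.12 to 0.18 with the block. Mia, Rgs22, Bbox1, Anxa5 and Tmem254a were brighter in astrocytes, and Plekhg1 and Sp7 in non-astrocytes. Fam216b differed by -1.28 ± 0.20 in astrocytes (limma adjusted p 0.029). How far astrocyte RNA enters these differences was not tested. Tmem254a has near-identical copies and its 3 probe sets, at -0.56 to -0.48, cannot be assigned to 1 copy. Mia had 6.29, 7.18 and 7.93 in dorsal cells against 8.54, 8.64 and 8.75 in ventral cells, so its dorsal replicates were spread widely below a tight ventral group.

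The non-astrocyte mixture was then described by 24 gene lists, 15 of them cell classes, with 311 of their 726 genes measured under a name. No member of any list passed with the block in the unweighted fit over all probe sets, and without the block 1 did, Dnah12. With the block, Dnah12 also passed with array weights (limma adjusted p 0.014), over named probe sets alone (0.025) and above the median signal (0.038), and Mia with array weights (0.035). The lists are therefore described by counts and medians. In a bulk sample, fewer cells of a class and less RNA per cell cannot be told apart. For orientation, 49.2% of the named genes (48.9% of all probe sets) had a difference above 0 and 50.8% (51.1%) one below 0, with a median of -0.0029 over the named genes.

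**Figure D2:**
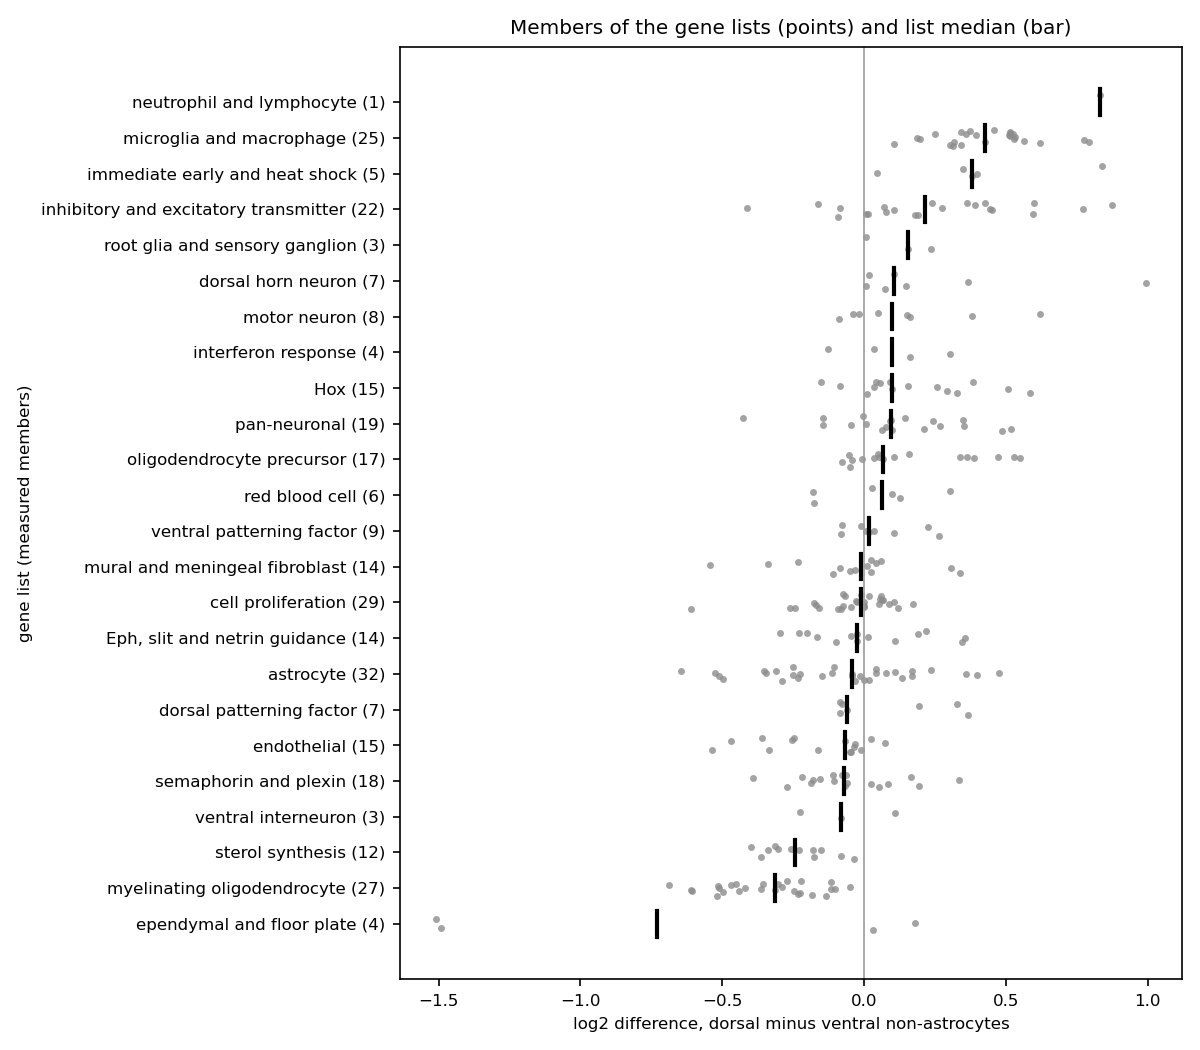
Log2 difference, dorsal minus ventral non-astrocytes, of each measured member (grey points) of 24 gene lists, with the list median as a black bar and the number of measured members in brackets. Microglial members all lie above 0, while myelinating oligodendrocyte and sterol synthesis members all lie below 0; the dorsal horn, root glia, immediate early and neutrophil lists, with at most 7 members, also lie above 0, and the others straddle it.

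Genes of myelinating oligodendrocytes had the lower signal in dorsal cells. All 27 measured members of the list (of 32) had a difference below 0, with a median of -0.31, and in 17 all 3 ventral values lay above all 3 dorsal values, against 10.3% of named genes. Medians in the 3 replicate pairs were -0.23, -0.42 and -0.32. Klk6, a serine protease of mature oligodendrocytes, had 7.19, 6.66 and 7.28 in dorsal cells and 7.46, 7.67 and 8.07 in ventral cells (-0.69 ± 0.17; limma adjusted p 0.35). Anln, an actin-binding protein of myelin, had 8.15, 7.62 and 8.40 in dorsal cells and 8.54, 8.59 and 8.86 in ventral cells (-0.61 ± 0.14; limma adjusted p 0.33). The gap junction gene Gjb1 differed by -0.61, the transferrin gene Trf by -0.50, and Gal3st1, which makes the myelin lipid sulfatide, by -0.45, all without overlap. Mbp differed less, by -0.18, with 10.668, 10.504 and 10.473 in dorsal cells and 10.77, 10.70 and 10.73 in ventral cells, and its groups did not overlap. Mog, a late marker on the outer face of myelin, had 10.45, 10.34 and 10.85 in dorsal cells against 10.88, 10.83 and 11.18 in ventral cells, and its groups overlapped slightly (-0.42 ± 0.14). In astrocytes the list's median was -0.19.

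Most oligodendrocyte precursor genes were near 0 or above it. Of the 17 measured members (of 22), 12 had a difference above 0, the median was 0.07, and in 6 all dorsal values lay above all ventral values, against 8.68% of named genes. Pdgfra, the receptor that keeps precursors dividing, had 10.78, 10.82 and 10.72 in dorsal cells and 10.37, 10.26 and 10.03 in ventral cells (0.55 ± 0.12; limma adjusted p 0.29). Calcrl, a receptor for calcitonin-family peptides, had 8.95, 9.12 and 8.96 in dorsal cells and 8.34, 8.68 and 8.59 in ventral cells (0.47 ± 0.11; limma adjusted p 0.33). Unlike Pdgfra, Calcrl was brighter in astrocytes, at 9.69 in dorsal and 9.18 in ventral ones. Its difference there was of like size (0.51 ± 0.11, limma adjusted p 0.12). The proteoglycan gene Cspg4, also called NG2, had 7.68, 7.71 and 7.53 in dorsal cells and 7.28, 7.32 and 7.31 in ventral cells (0.34 ± 0.09; limma adjusted p 0.4), and Pcdh15 differed by 0.53 and Lhfpl3 by 0.36. Sox10, active throughout the lineage, differed by -0.01, Olig2 by 0.10 and Gpr17, a marker of cells about to differentiate, by 0.05. The 5 members with a difference below 0 were Neu4, Tnr, Rprm, Vcan and Sox10, none under -0.08. The 29 measured proliferation genes had a median of -0.01, with Birc5, a mitotic survival protein, at -0.24 ± 0.13 (limma adjusted p 0.9).

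Microglial genes had the higher signal in dorsal cells. All 25 measured members of the microglia and macrophage list (of 35) had a difference above 0, from 0.10 to 0.79, with a median of 0.43, and in 11 all dorsal values lay above all ventral values, against 8.68% of named genes. Cd53, a tetraspanin of immune cells, had 9.76, 9.59 and 9.63 in dorsal cells and 8.66, 8.80 and 9.15 in ventral cells, or 1.73-fold (0.79 ± 0.20; limma adjusted p 0.35). Laptm5, a lysosomal protein of blood-derived cells, had 8.92, 9.11 and 8.92 in dorsal cells and 7.98, 7.76 and 8.88 in ventral cells (0.78 ± 0.22; limma adjusted p 0.41). Here ventral replicate 3 came close to the dorsal arrays. Csf1r showed the same order, with 8.996, 9.005 and 9.015 in dorsal cells and 8.34, 8.20 and 8.93 in ventral cells (0.51 ± 0.12; limma adjusted p 0.33). Spi1, the gene of the transcription factor PU.1 that directs microglial fate, had 7.104, 6.85 and 6.795 in dorsal cells and 6.32, 6.32 and 6.42 in ventral cells (0.56 ± 0.17; limma adjusted p 0.48). The complement receptor gene C3ar1 differed by 0.62, the complement gene C1qa by 0.52, the fractalkine receptor gene Cx3cr1 by 0.43, and the purine receptor gene P2ry12, high in resting microglia, by 0.34. Averaged over the list, the signal was 8.60, 8.62 and 8.74 on dorsal arrays and 8.08, 8.03 and 8.56 on ventral arrays, so that the pair medians were 0.51, 0.57 and 0.16. In astrocytes the median was 0.15.

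The promoters of the microglial list were read for the purine-rich core of PU.1 sites, GAGGAAG on either strand, a motif picked with the regional differences known. The list was chosen by cell class, and a link of the motif to the regional difference was not tested. Of the 25 measured members, 19 had a promoter (250 bases before to 50 after the start of the gene) that was counted from the RefSeq table of build GRCm38.p6, and 9 of these genes held the motif, against 15.4% of the 27025 genes in the table. Promoters on a chromosome not reported here were left out of the list's counts but not of the share over the table. A match of letters is no evidence of binding. The promoters of Cd53 and Laptm5, the pair with the widest regional difference, are shown 5′ to 3′ on the gene's strand, with the motif (here on the opposite strand, as CTTCCTC) in capitals. It begins 7 bases past the start base of Cd53, on the minus strand of chr3:106790100-106790399, and at position -39 from that of Laptm5, on the plus strand of chr4:130913066-130913365.
Cd53: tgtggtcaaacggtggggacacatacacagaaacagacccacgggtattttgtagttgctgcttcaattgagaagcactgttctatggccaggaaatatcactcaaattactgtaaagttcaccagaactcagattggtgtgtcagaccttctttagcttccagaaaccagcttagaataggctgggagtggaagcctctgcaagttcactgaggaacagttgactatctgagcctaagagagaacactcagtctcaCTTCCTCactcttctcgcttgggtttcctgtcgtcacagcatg
Laptm5: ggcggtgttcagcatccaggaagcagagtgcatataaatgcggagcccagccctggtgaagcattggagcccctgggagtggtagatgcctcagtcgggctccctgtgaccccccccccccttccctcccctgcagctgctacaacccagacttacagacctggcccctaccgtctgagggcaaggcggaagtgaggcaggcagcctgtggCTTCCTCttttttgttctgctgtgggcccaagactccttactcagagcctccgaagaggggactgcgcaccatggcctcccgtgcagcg

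Neuronal genes were mixed in sign. Of 19 measured pan-neuronal genes (of 40), 14 had a difference above 0, with a median of 0.09, and 4 were without overlap higher in dorsal cells against 1 in ventral cells (8.68% and 10.3% of named genes). Thy1, a surface protein of mature neurons, had 6.73, 6.99 and 7.42 in dorsal cells and 6.69, 6.49 and 6.40 in ventral cells (0.52 ± 0.16; limma adjusted p 0.5). Uchl1, an abundant neuronal deubiquitinase, was the 1 with the higher ventral signal (-0.43), and the neuronal tubulin gene Tubb3 differed by -0.14. Of 22 measured transmitter genes (of 40), 18 had a difference above 0, with a median of 0.21, and in 9 all dorsal values lay above all ventral values, against 8.68% of named genes. Gabrb2, a subunit of the GABA-A receptor, had 8.28, 8.69 and 8.58 in dorsal cells and 8.01, 7.53 and 7.39 in ventral cells, or 1.83-fold (0.87 ± 0.22; limma adjusted p 0.35). The further GABA-A receptor subunit genes Gabra2, Gabra3, Gabrb1 and Gabrg1 differed by 0.60, 0.60, 0.45 and 0.39, all without overlap. Gabrg3, of the same family, differed by 0.36 with overlap. Gria1, an AMPA receptor subunit, had 6.56, 6.97 and 7.22 in dorsal cells and 6.05, 6.28 and 6.11 in ventral cells (0.77 ± 0.24; limma adjusted p 0.48), whereas the receptor subunit genes Glrb, Grik2 and Gria2 differed by -0.16, -0.09 and -0.09. Grin1, the obligatory NMDA receptor subunit, had 7.14, 7.21 and 7.16 in dorsal cells and 6.92, 6.73 and 6.54 in ventral cells (0.44 ± 0.12; limma adjusted p 0.38). Slc6a9, the glycine transporter gene of glia, was without overlap higher in ventral cells (-0.41). The sodium channel gene Scn1a, noticed after its values were seen, had 7.286, 7.901 and 7.296 in dorsal cells and 6.40, 6.20 and 6.56 in ventral cells (1.11 ± 0.26; limma adjusted p 0.33). Some of these genes were brighter in astrocytes: Gria1 averaged 6.92 in dorsal and 6.15 in ventral non-astrocytes against 7.99 and 8.12 in dorsal and ventral astrocytes, Gabra2 5.796 and 5.20 against 8.98 and 9.54, and Thy1 7.04 and 6.53 against 7.759 and 8.004. Gabrb2, at 8.52 and 7.64 against 7.06 and 6.98, and Scn1a, at 7.49 and 6.39 against 5.72 and 5.71, were brighter in non-astrocytes. The part of astrocyte RNA in these differences was not tested. Pair medians of the transmitter list were 0.17, 0.09 and 0.44.

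Markers of the neurons that the anatomy would divide were thinly covered by names, with 7 of 56 dorsal horn genes, 8 of 34 motor neuron genes and 3 of 36 ventral interneuron genes measured. Tac1, which encodes substance P, had 8.02, 8.51 and 9.74 in dorsal cells and 7.87, 7.80 and 7.61 in ventral cells (1.00 ± 0.43; limma adjusted p 0.79). The groups did not overlap and dorsal replicate 3 lay far above the other dorsal arrays. In astrocytes Tac1 differed by 1.14 ± 0.43 (limma adjusted p 0.34). Reln, a secreted guidance protein of superficial dorsal neurons, had 7.31, 6.72 and 6.72 in dorsal cells and 6.68, 6.52 and 6.44 in ventral cells (0.37 ± 0.18; limma adjusted p 0.87). In astrocytes Reln ran the other way (-1.05 ± 0.18; limma adjusted p 0.045), and the difference between both regional contrasts did not pass (limma adjusted p 0.16). The other 5 dorsal horn genes, Lypd1, Rora, Satb1, Cbln2 and Rorb, differed by 0.15, 0.11, 0.07, 0.02 and 0.01. Among the motor neuron genes, 5 of 8 had a difference above 0, with a median of 0.10. They ranged from Sv2b, a synaptic vesicle protein, at 0.62 ± 0.31 (limma adjusted p 0.88), and Bcl6 at 0.38 ± 0.12 (limma adjusted p 0.48), to Mcam at -0.09. Ret and Gfra1, which together form the receptor for the motor neuron survival factor GDNF, differed by -0.02 and -0.04. Of the ventral interneuron genes, Onecut2 differed by -0.23 ± 0.10 (limma adjusted p 0.81), Nkx2-2 by -0.08 and Zfhx4 by 0.11. Reln, Rora, Rorb, Satb1, Esrrg, Ret, Sv2b, Tns1, Bcl6 and Zfhx4 were brighter in astrocytes than in non-astrocytes. Reln averaged 6.92 in dorsal and 6.55 in ventral non-astrocytes against 9.08 and 10.14 in dorsal and ventral astrocytes. Tac1, Lypd1, Cbln2, Gfra1, Mcam, Cntn4, Onecut2 and Nkx2-2 were brighter in non-astrocytes. The part of astrocyte RNA in these differences was not tested.

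**Figure D3:**
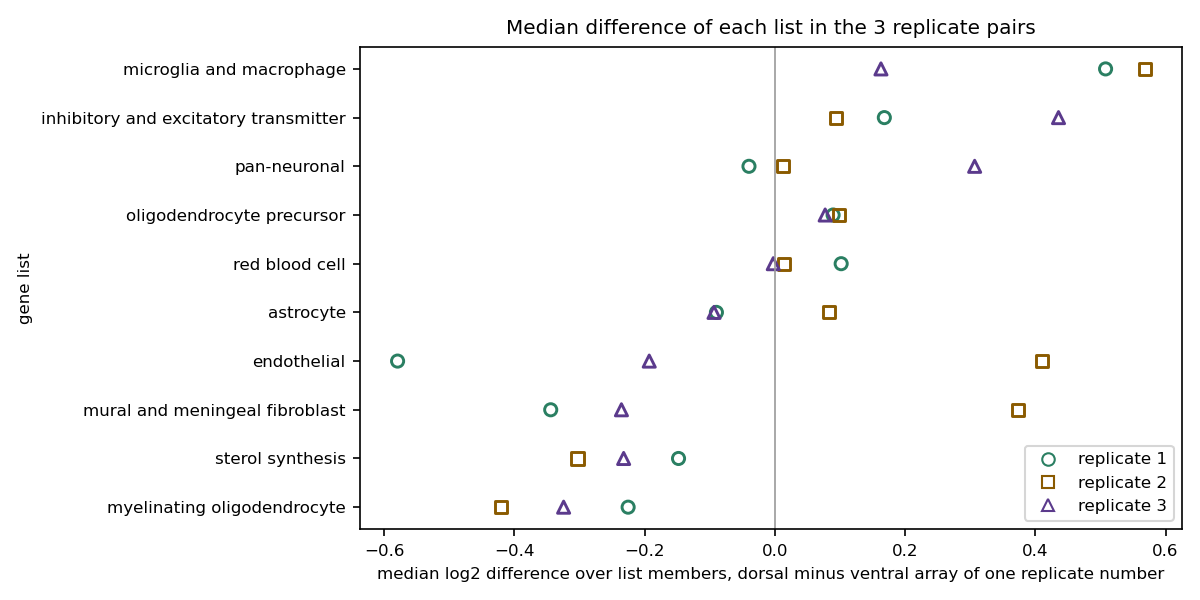
Median log2 difference over the members of 10 gene lists, dorsal minus ventral array, in each of the 3 replicate pairs (symbols). The microglial and transmitter medians lie above 0 in all 3 pairs and the myelinating oligodendrocyte and sterol synthesis medians below 0 in all 3, whereas the endothelial medians run from -0.58 to 0.41.

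Vessel genes differed in sign between replicate pairs. The 15 measured endothelial genes (of 30) had a median of -0.07, no member without overlap, and pair medians of -0.58, 0.41 and -0.19. Flt1, a VEGF receptor, had 6.26, 7.39 and 7.05 in dorsal cells and 7.21, 7.05 and 7.52 in ventral cells, with the lowest value in dorsal replicate 1 (-0.36 ± 0.22; limma adjusted p 0.94). Pecam1, an adhesion protein of endothelial junctions, was likewise lowest in dorsal replicate 1, with 6.68, 7.47 and 7.14 in dorsal cells and 6.87, 7.04 and 7.32 in ventral cells. Slc2a1, the glucose transporter of the blood-brain barrier, differed by -0.25 ± 0.11 (limma adjusted p 0.82). The 14 mural and fibroblast genes (of 32) had a median of -0.01 and pair medians of -0.34, 0.37 and -0.24, in the order of the endothelial ones, with the pericyte gene Rgs5 at -0.54 and the collagen gene Col1a2 at 0.30 ± 0.11 (limma adjusted p 0.65).

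Cilia and blood lists were small. Of 27 ependymal and floor plate genes 4 were measured: Dnah12 and Mia, described above, and Rarres2 and Spon1, a floor plate protein, which differed by 0.03 and 0.18. The 6 red blood cell genes had a median of 0.06, with Alas2, the first enzyme of haem synthesis in red cells, at -0.18 and Slc4a1, the band 3 anion exchanger, at 0.13. S100a9, a neutrophil protein and the 1 gene measured of 18 on its list, had 8.295, 7.464 and 7.133 in dorsal cells and 6.77, 6.86 and 6.76 in ventral cells (0.83 ± 0.21; limma adjusted p 0.35), highest in dorsal replicate 1. The 3 measured genes of the root glia list, Drp2, Fabp7 and Cdh19, differed by 0.24, 0.15 and 0.01. Drp2 and Fabp7 were brighter in astrocytes, so their signal is not particular to root glia. Drp2 averaged 6.39 in dorsal and 6.15 in ventral non-astrocytes against 8.02 and 7.90 in dorsal and ventral astrocytes. Fabp7 averaged 12.40 and 12.24 against 12.88 and 12.69.

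Astrocyte genes were also followed in the negative sort. All 32 genes of the list were measured, with a median of -0.04; in 7 all ventral values lay above all dorsal values (10.3% of named genes) and in 1, Atp1b2, the reverse (8.68%). Mlc1, a membrane protein of astrocyte endfeet, had 6.50, 6.92 and 7.15 in dorsal cells and 7.61, 7.42 and 7.48 in ventral cells (-0.64 ± 0.14; limma adjusted p 0.25). Slc4a4, a bicarbonate cotransporter, had 6.72, 7.00 and 7.04 in dorsal cells and 7.47, 7.12 and 7.66 in ventral cells (-0.50 ± 0.12; limma adjusted p 0.33). The 12 members with a difference above 0 included Gpc5 at 0.48, Ednrb at 0.40, Atp1b2 at 0.36 and Aldh1l1 itself at 0.14, and the 20 below 0 included Gfap at -0.52, Gja1 at -0.51, Aqp4 at -0.35 and Slc1a3 at -0.03. Averaged over the list, the signal was 6.804 to 6.885 on dorsal arrays and 6.78 to 7.07 on ventral arrays. The part of these genes' levels in the Slc14a1 difference was not tested.

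Genes that pattern the embryonic cord along its dorsal to ventral axis showed small differences. Pax3, a factor of dorsal progenitors, had 6.64, 6.62 and 6.75 in dorsal cells and 6.55, 6.33 and 6.02 in ventral cells (0.37 ± 0.14; limma adjusted p 0.67), and Zic1, a zinc finger factor of the dorsal cord, differed by 0.33 ± 0.17 (limma adjusted p 0.89). In astrocytes the same genes differed by 1.32 ± 0.14 and 1.58 ± 0.17 (limma adjusted p 0.0033 and 0.0035), and the difference between both regional contrasts did not pass for either (limma adjusted p 0.26 and 0.19). The 7 dorsal patterning genes measured had a median of -0.06 and the 9 ventral ones 0.02, with Gli2, an effector of Sonic hedgehog, at 0.26 ± 0.13 (limma adjusted p 0.86) and Dbx2 at 0.23 ± 0.17 (limma adjusted p 1). Hox genes set position along the body axis. Of 15 measured, 13 had a difference above 0, with a median of 0.10, and in 3 all dorsal values lay above all ventral values, against 8.68% of named genes. Hoxa5 had 7.66, 8.06 and 7.84 in dorsal cells and 7.39, 7.60 and 7.06 in ventral cells (0.51 ± 0.13; limma adjusted p 0.36), and Hoxb8 had 8.14, 8.13 and 9.08 in dorsal cells and 7.99, 7.96 and 7.62 in ventral cells (0.59 ± 0.20; limma adjusted p 0.58).

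Enzymes of cholesterol synthesis had the lower signal in dorsal cells. All 12 measured members (of 25) had a difference below 0, with a median of -0.24, and in 9 all ventral values lay above all dorsal values, against 10.3% of named genes. Dhcr7, which completes cholesterol, had 8.27, 8.06 and 8.31 in dorsal cells and 8.50, 8.63 and 8.71 in ventral cells (-0.40 ± 0.10; limma adjusted p 0.35). Idi1, an isomerase early in the pathway, had 10.12, 9.76 and 10.06 in dorsal cells and 10.36, 10.34 and 10.26 in ventral cells (-0.34 ± 0.11; limma adjusted p 0.49). Lss, which closes the sterol rings, differed by -0.36 and Fdps, which makes farnesyl diphosphate, by -0.32. In astrocytes the median of these 12 genes was 0.24, of opposite sign, and the interaction was called for none of them.

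Guidance, stress and interferon genes had small median differences except for the stress list. The 18 measured semaphorin and plexin genes had a median of -0.07, with Sema4f at -0.39 ± 0.13 (limma adjusted p 0.53) and Sema4d, a semaphorin of oligodendrocytes, at -0.27 ± 0.12 (limma adjusted p 0.8), both without overlap and higher in ventral cells. The 14 Eph, slit and netrin genes had a median of -0.03, with Robo1, a slit receptor, at 0.34 ± 0.10 (limma adjusted p 0.43) and Ephb1 at -0.30 ± 0.10 (limma adjusted p 0.53). The 5 immediate early and heat shock genes, which respond quickly to stimulation, all had a difference above 0, with a median of 0.38 and of 0.37 in astrocytes. Egr2 had 9.04, 7.73 and 7.77 in dorsal cells and 7.20, 7.37 and 7.44 in ventral cells (0.84 ± 0.32; limma adjusted p 0.66), highest in dorsal replicate 1, and Fos differed by 0.35 ± 0.18 (limma adjusted p 0.9). The interferon genes Ifi27 and Ifit2 differed by 0.30 and 0.16, and the 4 measured of that list had a median of 0.10.

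The regional difference of non-astrocytes was then set against that of astrocytes, as an interaction term with the replicate block. It was called by limma for 12 probe sets (0.0422%), 6 with the non-astrocyte difference above the astrocyte difference (0.0211%) and 6 below (0.0211%), and for 18 (0.0632%) without the block. Leaving out 1 of the 6 non-astrocyte arrays or all 4 arrays of 1 replicate number gave 0 to 7 calls, and putting the control-type probe sets back gave 0. Of the 12, 9 had a name. In 8 of these the regional difference was the larger in astrocytes. A name could come from the authors' list of 39 entries that differ between dorsal and ventral astrocytes. The naming itself therefore favours genes with a large astrocyte difference, and the 8 of 9 cannot be read as a share over all probe sets. Sema3a, a secreted axon repellent, had 5.78, 5.37 and 5.77 in dorsal non-astrocytes and 5.63, 5.70 and 5.79 in ventral non-astrocytes, with overlap and a difference of -0.06 ± 0.20, against -2.30 ± 0.20 in astrocytes. Fads2b, a fatty acid desaturase gene, differed by 0.15 ± 0.32 and -3.45 ± 0.32 in non-astrocytes and astrocytes, Epha5, an ephrin receptor, by 0.19 ± 0.13 and -1.75 ± 0.13, and Nmnat2, an enzyme of NAD synthesis that keeps axons alive, by 0.24 ± 0.13 and -1.34 ± 0.13. Hs3st3a1, a heparan sulfate sulfotransferase, differed by -0.15 ± 0.17 and 1.91 ± 0.17, Unc13c, a priming factor of synaptic vesicles, by 0.39 ± 0.11 and 1.58 ± 0.11, and Sez6l by 0.13 ± 0.10 and 1.15 ± 0.10. A second probe set of Unc13c differed by 0.09 in non-astrocytes, with an interaction of -0.72 against -1.20 for the first. Without the block the interaction no longer passed for Sez6l (limma adjusted p 0.26) and Gpr37 (0.056). Gpr37, a receptor of oligodendrocytes, had 8.66, 8.38 and 8.97 in dorsal non-astrocytes and 8.92, 8.99 and 9.41 in ventral non-astrocytes, a difference of -0.44 ± 0.11 in the direction of the astrocyte difference (-1.87 ± 0.11). Slc14a1 was the exception, with -0.78 ± 0.09 in non-astrocytes and 0.15 ± 0.09 in astrocytes (interaction adjusted p 0.049 by limma).

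**Figure D4:**
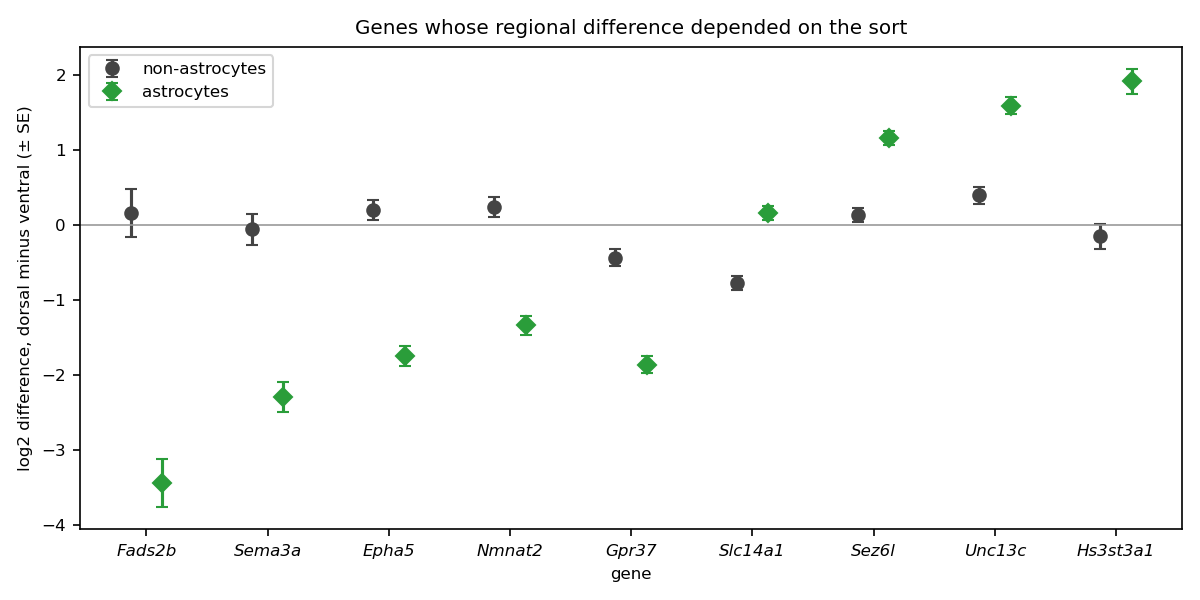
Log2 difference between dorsal and ventral cells (± SE from limma) of the 9 named genes called in the interaction, for non-astrocytes (grey circles) and astrocytes (green diamonds). Except for Slc14a1, the astrocyte points lie farther from 0 than the non-astrocyte points, which all lie within -0.78 and 0.39.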

How the data were processed

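RNA of 12 samples was amplified, labelled with biotin and hybridised to 1-colour arrays, per the labels' protocols. Per the submitters' processing notes the authors used oligo, RMA and limma; neither versions nor a genome build could be read from those notes. The table the authors deposited holds log2 values per probe set (35556, of which 476 repeated another exactly). The authors' 2 deposited comparison tables repeat these log2 values beside a gene name; per the file headers, the authors' tables also give fold ratios, t statistic scores and p-values of their comparisons, which were not used. Names were given where all 12 values matched to 6 decimals, and 3 probe sets with conflicting names stayed unnamed. A leading block of 6613 probe sets numbered one by one, with no names, was left out as control-type.

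With limma 3.58.1 in R 4.3.3 (lmFit, eBayes), group means plus the replicate number were fitted over all 12 arrays (degrees of freedom 6 residual, 4.63 prior). Tests were two-sided and p was adjusted over 28467 probe sets by the Benjamini-Hochberg method. The replicate number is a block because the comparison was set to pair arrays by replicate number. In a check made after the fits, same-numbered dorsal and ventral non-astrocyte arrays deviated together from their group means (correlation 0.147 to 0.209, against -0.139 to -0.0415 for other pairs). Deviations within a group cancel out, so positive values for same-numbered arrays bring negative ones for other pairs. The negative values are therefore not a separate check of the pairing. The fit was tested on simulated data. SEs are those of the fit, and the brightest probe set stands for a gene in a list. Named genes were, in each direction, the 10 of lowest p that have no overlap, the 2 members of lowest p per list (all for neuron lists), and up to 5 called in the interaction; other members were named after their values were seen, and 1 gene that the rule names is not reported here. The members and lists were chosen with earlier results of these data known. Tables and figures used Python 3.11.15.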

Additional observations from a re-analysis of the deposited data

Results flagged for a closer look

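For 9 named genes the regional difference, dorsal minus ventral, differed between non-astrocytes and astrocytes when the difference itself was tested (interaction term of limma with the replicate block, adjusted p under 0.05). The non-astrocyte difference minus the astrocyte difference was 3.60 for Fads2b, 2.24 for Sema3a, 1.94 for Epha5, 1.58 for Nmnat2 and 1.43 for Gpr37 on the log2 scale. It was -2.06 for Hs3st3a1, -1.20 for Unc13c, -1.02 for Sez6l and -0.93 for Slc14a1. Without the block Sez6l (adjusted p 0.26) and Gpr37 (0.056) no longer passed. Groups of 3 arrays are too small for a test of outlying samples.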

How the results depend on the processing

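With the replicate block, 0 probe sets were called between dorsal and ventral non-astrocytes; 14 were called with no replicate block, 14 with the replicate number as a random block, 1 on the non-astrocyte arrays alone with no block, 74 with array weights (19 of the 20 genes of lowest p among them), 2 when the named probe sets alone were tested, 11 among probe sets above the median signal, and 16 at an adjusted p under 0.10, a threshold chosen after seeing the data. Leaving out replicates or single non-astrocyte arrays gave 0 to 12 calls with the block and 0 to 31 with no block. Putting the control-type probe sets back gave 0 calls with no block and 0 for the interaction, where 12 were called, 21 with the random block, 28 over named probe sets alone and 0 to 7 with replicates left out. In the ependymal list 0 members were called, but 1 with no block, 1 with the random block, 2 with array weights, 1 over named probe sets, 1 above the median signal and 0 to 1 with replicates left out; every other list stayed at 0 in each of these settings. Why these counts differ was not tested. Of 79 genes followed, 11 changed the sign of their regional difference in some alternative setting. Among the 20 genes of lowest p, 0 changed sign. With replicates or single arrays left out, the 11 ranged as follows: Rorb -0.07 to 0.11, Cbln2 -0.045 to 0.103, Esrrg -0.016 to 0.326, Ret -0.136 to 0.093, Gfra1 -0.22 to 0.11, Mcam -0.207 to 0.025, Cntn4 -0.02 to 0.28, Tns1 -0.19 to 0.26, Ifit2 -0.062 to 0.369, Aldh1l1 -0.032 to 0.231 and Pecam1 -0.21 to 0.21. Averaging all probe sets of a gene moved none of the 24 list medians beyond the spread between pairs.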
